A study of Mus musculus with 23 samples.

Results

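Articular cartilage of Str/ort mice was compared with that of CBA mice at the youngest age sampled, labelled 8 weeks. The comparison takes the 3 arrays titled as Str/ort at 8 weeks and the 4 titled as CBA at 8 weeks, 7 of the 23 arrays of the series. The other arrays come from both strains at 18 and 40 weeks, and serve here to estimate the spread of each gene and to show which differences were also measured later. All mice were male, no treatment is named, their ages ran from 8 to 10 weeks at this time point, and the CBA mice came from a commercial breeder. Samples were whole pieces of joint cartilage, and the number of mice behind each array is not given. The series describes its replicates as biological, so p-values measure the spread between such samples.

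Str/ort is an inbred strain that develops osteoarthritis of the knee spontaneously with age, and CBA is commonly used as its control because its joints remain healthy. Inbred strains differ at many places in the genome, so a comparison of this kind holds both differences fixed by strain and any difference in the state of the tissue. Cartilage is made by chondrocytes, which lay down a matrix of type II collagen and aggrecan, while blood, marrow, bone, muscle and synovium lie close to it in a mouse joint.

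Levels are RMA signals on the log2 scale, on which a difference of 1 is a doubling of signal, and differences are Str/ort minus CBA. A gene is termed called where its adjusted p (limma, Benjamini-Hochberg over all genes) was under 0.05. Across the 19937 genes with a name of their own, the array CBA replicate 1 stood apart from its group: its differences from the other CBA arrays had an SD of 0.454, against 0.172 to 0.260 for the other 6 arrays, and its median correlation with them was 0.9747 against 0.9937 or higher. Results are therefore given with and without it. Defining cartilage genes were measured on all 7 arrays, with 9.68 to 10.65 for Col2a1 and 8.91 to 11.27 for Acan. Prg4, which encodes the joint lubricant lubricin and is also listed here as a synovial fibroblast marker, was 13.18 to 13.65. The mean of 48 skeletal muscle markers was 11.02, 10.41, 9.66 and 10.91 on the CBA arrays and 8.66, 8.74 and 7.87 on the Str/ort arrays, and these ranges do not overlap. The median difference of the muscle markers was -2.38, and -2.10 without CBA replicate 1. None of them was called in the fit on all 23 arrays (limma; 35 of 48 at an unadjusted p under 0.05). A fit on the 7 arrays alone called 33 of the 48 lower, where it called 129 of all 19937 genes lower and 115 higher. The mean of 18 erythroid markers was 10.79 on CBA replicate 1 and 11.02 to 11.59 on the other 6 arrays. That of 26 neutrophil markers was 11.62 to 12.18 over the 7 arrays, and that of 27 cartilage matrix genes 9.46 to 10.34. Transcripts of blood or marrow cells were thus measured at high levels in these samples of both strains. Xist, the RNA of the inactive X chromosome, was 7.76 on Str/ort replicate 1 and 5.76 to 6.33 on the others, although all mice are labelled male. In bulk samples, fewer cells of a type and less RNA per cell cannot be told apart.

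At 8 weeks 347 genes were called, which is 1.74% of the 19937 tested. Of these, 241 were higher in Str/ort (1.21%) and 106 were lower (0.532%). In 342 of the 347, every array of one strain lay above every array of the other, which was so for 16.8% of all genes. The median size of the called differences was 0.66, and 77 exceeded 1, of which 59 were rises. Without CBA replicate 1, 243 genes were called (1.22%), 157 higher and 86 lower, 211 of them among the 347. No called gene changed sign. The count also depended on other arrays. Leaving out CBA replicate 2 gave 197 genes, and leaving out Str/ort replicate 2 gave 180 and Str/ort replicate 3 gave 140. Whichever of the 7 arrays was left out, 118 genes were called. The muscle markers are lower in Str/ort without overlap, and with their mean as a covariate 246 genes were called, 188 of them among the 347.

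**Figure D1:**
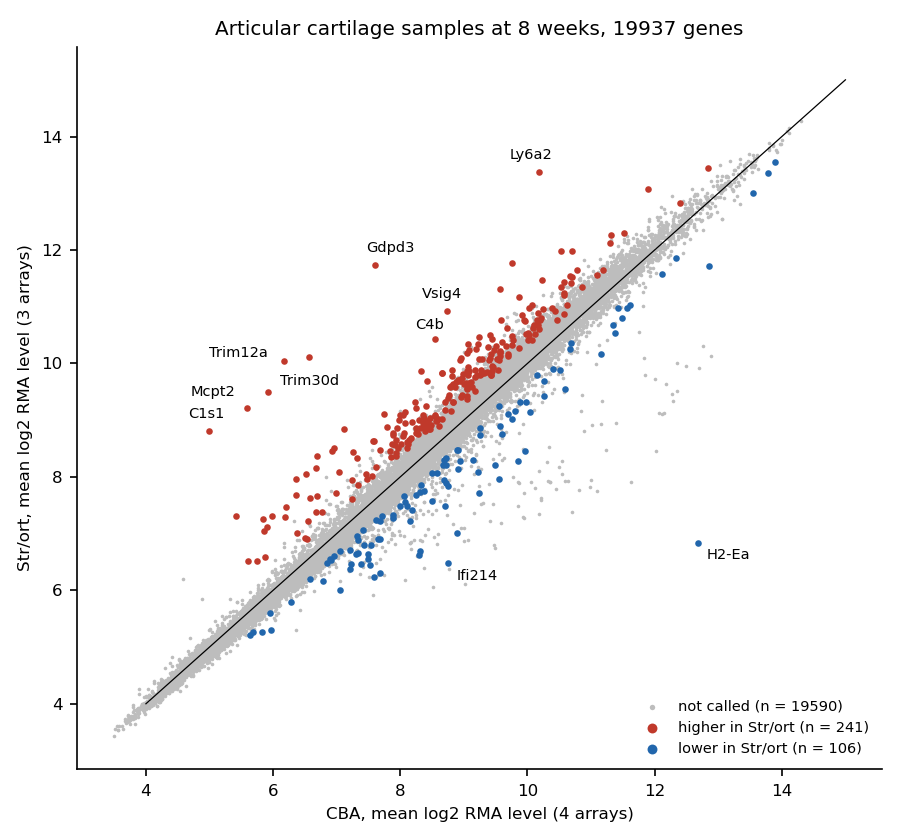
Mean log2 level of each of 19937 genes on the 4 CBA arrays (horizontal) and the 3 Str/ort arrays (vertical) at 8 weeks, with the 241 genes called higher in Str/ort in red, the 106 called lower in blue and the line of equal level in black. H2-Ea lies farthest below the line and Gdpd3 farthest above it among called genes; the grey points far below the line at high CBA levels were not called.

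**Figure D2:**
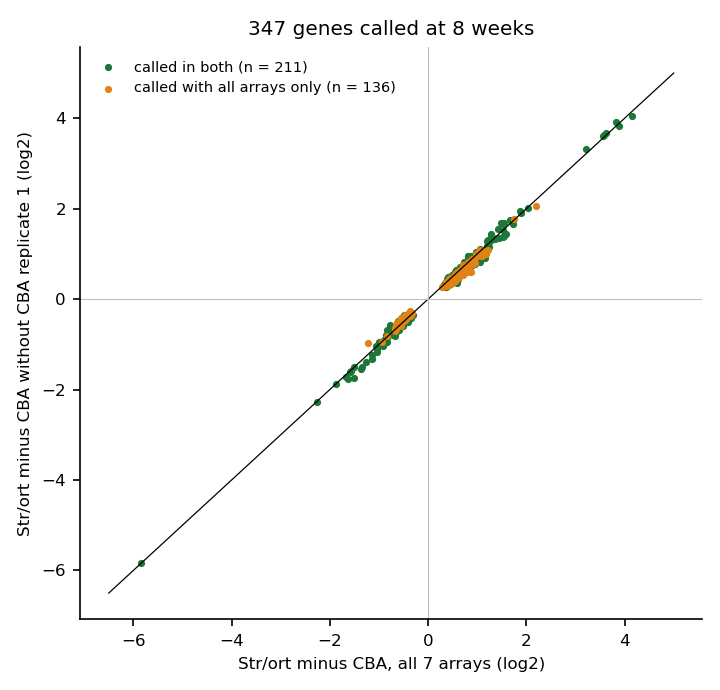
Difference between the strains for the 347 called genes with all 7 arrays (horizontal) and without CBA replicate 1 (vertical), both in log2 units, with the line of equal difference in black. The 211 genes that kept the call are green and the 136 that lost it are orange, and all lie on the same side of 0 on both axes.

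The largest fall and the largest rise among called genes were those of H2-Ea and Gdpd3. H2-Ea encodes the alpha chain of the class II antigen-presenting molecule I-E. It measured 12.73, 12.72, 12.84 and 12.46 on the CBA arrays and 6.77, 7.07 and 6.69 on the Str/ort arrays, a difference of -5.84 ± 0.19 (SE; adjusted p = 7.78e-15). The other class II genes named here were not called: the beta chain gene H2-Eb1 differed by 0.29 ± 0.20, H2-Aa by 0.00 ± 0.21, H2-Ab1 by 0.22 ± 0.24 and the invariant chain Cd74 by -0.04 ± 0.24. Of 16 class II and antigen presentation genes, H2-Ea was the only one called, where 0.532% of all genes were called lower. The fit on the 7 arrays alone called H2-Ea lower and also H2-Ob higher, where it called 129 of all 19937 genes lower and 115 higher. Without CBA replicate 1 the difference of H2-Ea was -5.83.

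Gdpd3, a phosphodiesterase that releases lysophosphatidic acid from lysophospholipids, was 7.30, 7.77, 7.70 and 7.62 in CBA and 11.75, 11.85 and 11.61 in Str/ort. The groups are far apart and each is tight, with a difference of 4.14 ± 0.14 (adjusted p = 7.78e-15). Its relative Gdpd1 went the other way, from 9.33, 9.72, 9.72 and 9.65 to 9.04, 8.57 and 8.63, a fall of -0.86 ± 0.16 (adjusted p = 0.00589) that missed the threshold without Str/ort replicate 2 or 3 (-0.77 and -0.80). The other 5 genes of this family did not pass.

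Other enzymes and transport proteins also differed. Stard10, a phospholipid transfer protein, was 9.72 to 10.02 in CBA and 11.02 to 11.28 in Str/ort (1.31 ± 0.11, adjusted p = 2.33e-07). Mgst2, a microsomal glutathione transferase that can also make leukotriene C4, was 7.90 on CBA replicate 1 and 8.78 to 9.05 on the other CBA arrays, against 9.70 to 10.04 in Str/ort. Its difference was 1.17 ± 0.20, and 0.91 without CBA replicate 1, called both ways. Gstm6, another glutathione transferase, rose by 0.92 ± 0.14. Adh1, an alcohol dehydrogenase that also oxidises retinol, fell by 1.58 on the log2 scale (adjusted p = 2.35e-06). St8sia1, which makes the ganglioside GD3, was 8.16 to 8.38 in CBA and 6.42 to 6.85 in Str/ort (-1.67 ± 0.13). Glo1, which detoxifies methylglyoxal, was 11.32, 11.02, 11.15 and 11.17 in CBA and 10.37, 9.95 and 10.20 in Str/ort, a difference of -0.99 ± 0.13, while another transcript cluster of Glo1 differed by -0.46 and was not called. Padi2, which converts arginine residues of proteins to citrulline, fell by 1.51, and Ttc9, a tetratricopeptide repeat gene, by 1.63. All 8 of the genes in this paragraph were called in each of the 7 fits that left out 1 array.

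**Figure D3:**
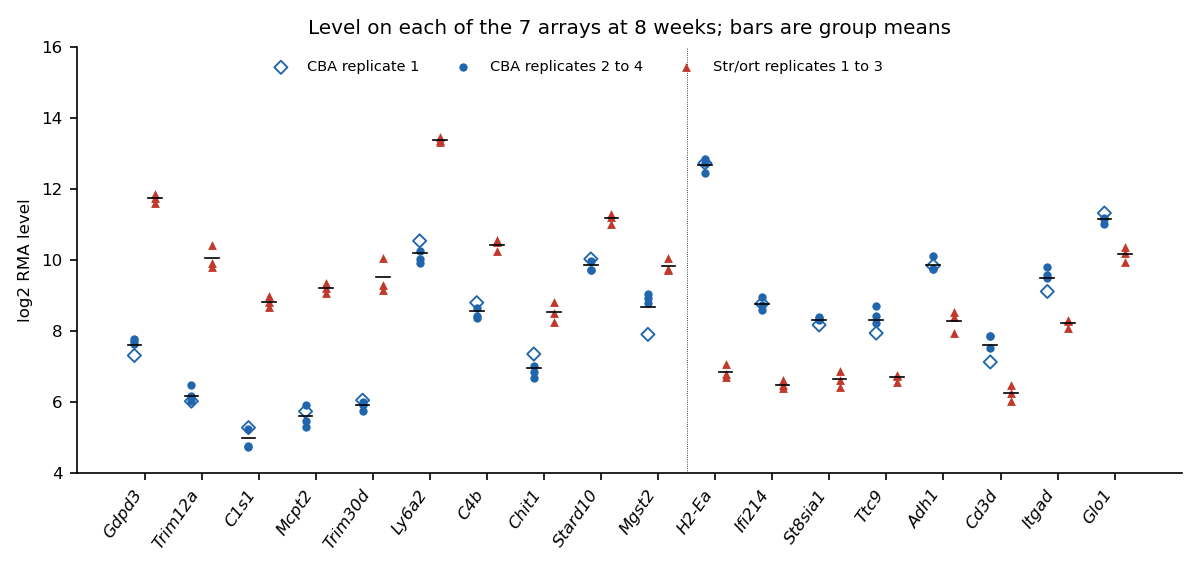
Log2 level of 18 named genes on each of the 7 arrays at 8 weeks: open diamonds are CBA replicate 1, blue circles CBA replicates 2 to 4, red triangles Str/ort, and black bars group means. Genes left of the dotted line were called higher in Str/ort and those right of it lower, and in each of the 18 the strains do not overlap, with CBA replicate 1 among its group for H2-Ea (12.73) and below it for Mgst2 (7.90).

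Of the gene families examined, complement had the most called rises. Of 35 measured complement genes, 8 were called higher and none lower, where 1.21% of all genes were called higher, while the median difference over the 35 was 0.08. The fit on the 7 arrays alone called 5 of the 35 higher, 4 of them among the 8, where it called 115 of all 19937 genes higher. The list mean was 8.49, 8.50, 8.57 and 8.40 in CBA and 8.91, 8.87 and 8.85 in Str/ort, without overlap. C1s1 encodes the C1s protease of the classical pathway. It was 5.27, 4.72, 5.22 and 4.74 in CBA and 8.98, 8.67 and 8.80 in Str/ort (3.83 ± 0.57, adjusted p = 0.000468). C4b, the component that C1s cleaves, was 8.79, 8.65, 8.41 and 8.36 in CBA and 10.55, 10.24 and 10.50 in Str/ort (1.88 ± 0.23). C4a, a close copy of C4b whose probes may share sequence with it, differed by 0.72 ± 0.18 and was called only with all 7 arrays or without CBA replicate 2.

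Some receptors and inhibitors of the system were also among the 8 rises. C5ar2, a receptor for the C5a fragment, was 7.73 to 8.21 in CBA and 8.83 to 9.46 in Str/ort (1.05 ± 0.16). C3ar1, the C3a receptor, was 8.86 to 9.54 in CBA and 10.22 to 10.70 in Str/ort (1.22 ± 0.29, adjusted p = 0.0306). Cd59a, which blocks the membrane attack complex, rose by 0.82 ± 0.16, and Serping1, the C1 inhibitor, by 0.42 ± 0.11. Vsig4, the complement receptor of resident macrophages, showed more scatter, with 8.33, 8.20, 10.06 and 8.33 in CBA and 11.85, 9.99 and 10.96 in Str/ort. Its groups overlap, since CBA replicate 3 lies above Str/ort replicate 2, and its difference was 2.20 ± 0.49 (adjusted p = 0.0202). Without CBA replicate 1, 5 of the 8 were still called. Serping1 (adjusted p = 0.0923), C4a (0.0704) and Vsig4 (0.0645) were not. C1s1, C4b and C5ar2 were called whichever array was left out, Cd59a in all but the fit without Str/ort replicate 3 (0.76), and C3ar1 only without CBA replicate 1 or 3, with differences between 1.09 and 1.34 over the 7 fits.

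Several families of neighbouring, closely related genes held members that differed in opposite directions. In such families a probe can match more than one copy, so the share of each member in its signal is uncertain. Of 9 Trim5/Trim30 genes, which encode antiviral ring-finger proteins, 3 were called higher and 1 lower, where 1.21% and 0.532% of all genes were. Trim12a was 6.01, 6.03, 6.47 and 6.15 in CBA and 9.92, 10.40 and 9.80 in Str/ort, and Trim30d was 6.04, 5.98, 5.90 and 5.74 against 9.15, 10.05 and 9.30. In both genes the strains are widely separated, with differences of 3.88 ± 0.17 and 3.58 ± 0.18. Trim12c, a close relative of Trim12a, differed by -0.37 ± 0.20 and Trim30a by 0.53 ± 0.19, neither of them called. Trim68 fell by 0.77 (adjusted p = 6.66e-05), and Trim21 rose by 0.52, a call lost without CBA replicate 1 or 2 or Str/ort replicate 2 or 3 (0.37 to 0.56; adjusted p = 0.141 without CBA replicate 1).

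Of 10 genes of the p200 family, nuclear proteins that bind DNA and respond to interferon, 1 was higher and 3 were lower. Among all genes 1.21% were called higher and 0.532% lower. Ifi202b was 6.95, 6.79, 7.52 and 7.22 in CBA and 8.54, 9.28 and 8.71 in Str/ort (1.73 ± 0.25). Ifi214 was 8.77, 8.59, 8.94 and 8.72 in CBA and 6.38, 6.47 and 6.61 in Str/ort (-2.27 ± 0.17), and Ifi209 fell by 1.59. Ifi203 differed by -0.67 ± 0.16 and lost the call in every fit with 1 array left out but that without CBA replicate 4, with differences between -0.74 and -0.61. In the RefSeq gene order Ifi203 and Ifi202b are adjacent, and next to them, beyond the uncalled Ifi205, lie 2 called olfactory receptor genes, Olfr433 and Olfr432. Olfr433 was called whichever array was left out, and Olfr432 only without CBA replicate 3 or 4 (adjusted p = 0.098 without CBA replicate 1).

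The Ly6 family holds small membrane-anchored proteins that include markers of blood stem cells and neutrophils. Of its 25 genes 4 were called higher, Cd59a among them, and 2 lower, where 1.21% and 0.532% of all genes were. The fit on the 7 arrays alone called 2 of these 6, Ly6a2 and Ly6d, and 144 of all 347 called genes. Ly6a2 was 10.53, 10.02, 10.25 and 9.91 in CBA and 13.37, 13.45 and 13.33 in Str/ort (3.20 ± 0.19, adjusted p = 1.91e-10). Its neighbour Ly6i was 6.54, 6.66, 6.60 and 6.29 in CBA and 7.30, 9.30 and 7.55 in Str/ort, high on Str/ort replicate 2 above all (1.53 ± 0.29, and 0.90 without that array, called both ways). Ly6g, the neutrophil antigen next to it, was 13.46 to 13.61 in CBA and 12.91 to 13.18 in Str/ort (-0.54 ± 0.10; adjusted p = 0.0599 without Str/ort replicate 3). Ly6f, 1 tested gene farther on, fell by 0.46, a call lost in 5 of the 7 fits with 1 array left out, with differences between -0.53 and -0.35. Ly6i, Ly6a2 and Ly6g are the only run of 3 called genes in the RefSeq order. Of 19853 tested genes placed in that order 345 were called, and 31 of these lay directly beside another called gene. Whether 31 exceeds chance was not tested. Ly6d, a lymphoid progenitor antigen in the same family, rose by 1.27 ± 0.28 and lost the call without Str/ort replicate 2 (1.11) or 3 (1.35).

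Of 13 eosinophil and basophil markers, Mcpt8 was called higher and Ccr3 lower, where 1.21% and 0.532% of all genes were. A difference above 0 was found in 11 of the 13. In 7 every Str/ort array lay above every CBA array, which was so for 10.9% of all genes. The median was 0.38 (0.41 without CBA replicate 1). Mcpt2, a chymase of mucosal mast cells, was 5.73, 5.90, 5.28 and 5.46 in CBA and 9.36, 9.07 and 9.20 in Str/ort (3.62 ± 0.20), whereas Mcpt4, the chymase of connective tissue mast cells, did not pass (0.05 ± 0.16). Of 15 mast cell markers none was called (limma; 3 at an unadjusted p under 0.05), with a median difference of 0.13, and of 19 granule protease genes only Mcpt2 and Mcpt8 were. Mcpt8, a protease of basophils, was 10.23, 10.45, 10.88 and 10.57 in CBA and 11.76, 12.18 and 12.00 in Str/ort (1.45 ± 0.27). Rnase2a, an eosinophil-associated ribonuclease, was 9.35 to 10.08 in CBA and 11.66 to 11.88 in Str/ort (2.03 ± 0.27). Ccr3, the eotaxin receptor of eosinophils, went the opposite way, from 9.27, 10.37, 10.22 and 9.98 to 8.40, 8.51 and 8.43 (-1.51 ± 0.30; -1.74 without CBA replicate 1, and adjusted p = 0.052 without Str/ort replicate 3). Its groups do not overlap although CBA replicate 1 is low.

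Receptors of lymphocytes were divided as well. Cd3d, a chain of the T cell receptor complex, was 7.12, 7.86, 7.86 and 7.50 in CBA and 6.02, 6.46 and 6.23 in Str/ort (-1.35 ± 0.21). The other CD3 chains had smaller differences that did not pass, with -0.64 ± 0.22 for Cd3g and -0.37 ± 0.18 for Cd3e. Of 24 T and NK cell markers, none was higher and 2 were lower, Cd3d and Klrd1 (-0.94 ± 0.24; adjusted p = 0.0914 without CBA replicate 1), with a median of -0.18. Of 36 C-type lectin genes, Klrd1 was the 1 called lower and 3 were called higher, where 0.532% and 1.21% of all genes were. The 3 rises were those of Klrb1b, an inhibitory receptor of NK cells, by 1.32, of Klra2, a myeloid Ly49 receptor, by 1.53, and of Clec2e by 1.27. Klrb1b was 5.92 to 6.01 in CBA and 7.14 to 7.39 in Str/ort, with hardly any spread in CBA. Cd72, a B cell co-receptor, was 11.11 to 11.52 in CBA and 10.50 to 10.59 in Str/ort (-0.83 ± 0.20; adjusted p = 0.0783 without CBA replicate 1). Klrd1 and Cd72 each lost the call in 6 of the 7 fits with 1 array left out, with differences between -1.05 and -0.83 and between -0.92 and -0.78.

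Macrophage genes also went both ways. Cd163, the scavenger receptor for haemoglobin, was 8.67, 9.44, 9.48 and 9.31 in CBA and 8.40, 8.00 and 7.88 in Str/ort, with CBA replicate 1 nearest to Str/ort (-1.13 ± 0.29, adjusted p = 0.05, just under the threshold; -1.32 without that array). It lost the call in each of the other 6 fits with 1 array left out (-1.03 to -1.29). Cd5l, an apoptosis inhibitor of tissue macrophages, differed by -1.37 ± 0.30, with its call lost in 4 of the 7 fits (-1.25 to -1.38), and the integrin gene Itgad by -1.27 ± 0.21. Another transcript cluster of Itgad differed by -0.25 and was not called. Chit1, a chitinase of activated macrophages, was 6.66 to 7.34 in CBA and 8.24, 8.82 and 8.49 in Str/ort (1.56 ± 0.17), and Chil1, the chitinase-like protein YKL-40 made by chondrocytes, macrophages and neutrophils, rose beside it from 11.51, 12.01, 12.15 and 11.89 to 12.97, 13.22 and 13.03 (1.18 ± 0.21). The 2 are adjacent in the RefSeq order, and Chil1 was named after its values were seen. Over 26 macrophage and monocyte markers 1 was higher and 1 lower, with a median of 0.16, and over 26 neutrophil markers also 1 and 1. Among all genes 1.21% were called higher and 0.532% lower.

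Of a list of genes induced by interferon a minority were called, all of them higher in Str/ort. The p200 genes called lower, described above, are not on this list. For most of the list 1 Str/ort array held the highest level. Interferons act through receptors that activate STAT and IRF transcription factors, and many of the genes they induce block viral replication. Of 46 measured genes, 8 were called higher and none lower, where 1.21% of all genes were called higher. The median difference was 0.52, against -0.01 over all genes. The calls rest on the spread estimated from all 23 arrays: in the fit on the 7 arrays alone none of the 46 was called (limma; 30 at an unadjusted p under 0.05, all 30 higher), and none of 9 interferon-inducible GTPases or 9 Schlafen genes (3 and 5 at an unadjusted p under 0.05). The list mean was 9.01, 9.22, 9.40 and 9.19 in CBA and 9.38, 10.23 and 9.64 in Str/ort, so that Str/ort replicate 1 lies below CBA replicate 3. In 42 of the 46 the highest of the 7 arrays was Str/ort replicate 2, which was so for 16.9% of all genes. Without that array the median was 0.29 and 1 of the 46 was called; without CBA replicate 1 it was 0.43 and 3 were called, Ifit1, Mx1 and Oasl1.

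Ifit1, which binds foreign RNA ends, was 8.49, 8.51, 8.59 and 8.09 in CBA and 9.29, 10.57 and 9.19 in Str/ort (1.27 ± 0.24, adjusted p = 0.00613). It remained called whichever array was left out, with differences between 0.82 and 1.51. The strains do not overlap, with Str/ort replicate 2 far above the rest. Mx1, a GTPase that blocks influenza viruses, was 6.52 to 6.58 in CBA and 6.85, 7.65 and 7.16 in Str/ort. Oas2, a sensor of double-stranded RNA, was 8.12 to 8.39 in CBA and 8.45, 10.00 and 9.18 in Str/ort, and its relative Oasl1 7.87 to 8.32 against 8.48, 9.62 and 8.72. These 3 rose by 0.66, 0.97 and 0.87, and lost the call without Str/ort replicate 2 (0.45, 0.57 and 0.53); Mx1 also lost it without Str/ort replicate 3, and Oas2 in 4 other fits. Rtp4, Parp12, Parp14 and Xaf1, the other called members, rose by 0.71 to 1.18, and all 4 lost the call without CBA replicate 1 (0.61 to 1.00) or without Str/ort replicate 2 (0.46 to 0.77). Of the related families, Gbp7, an interferon-induced GTPase, rose by 1.12 ± 0.19 and Slfn8 of the Schlafen family by 1.02 ± 0.18, both of them called whichever array was left out. Gbp2b, a guanylate-binding protein that the GTPase list does not hold, was 6.49 to 6.90 in CBA and 7.92, 9.24 and 7.94 in Str/ort (1.67 ± 0.22).

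**Figure D4:**
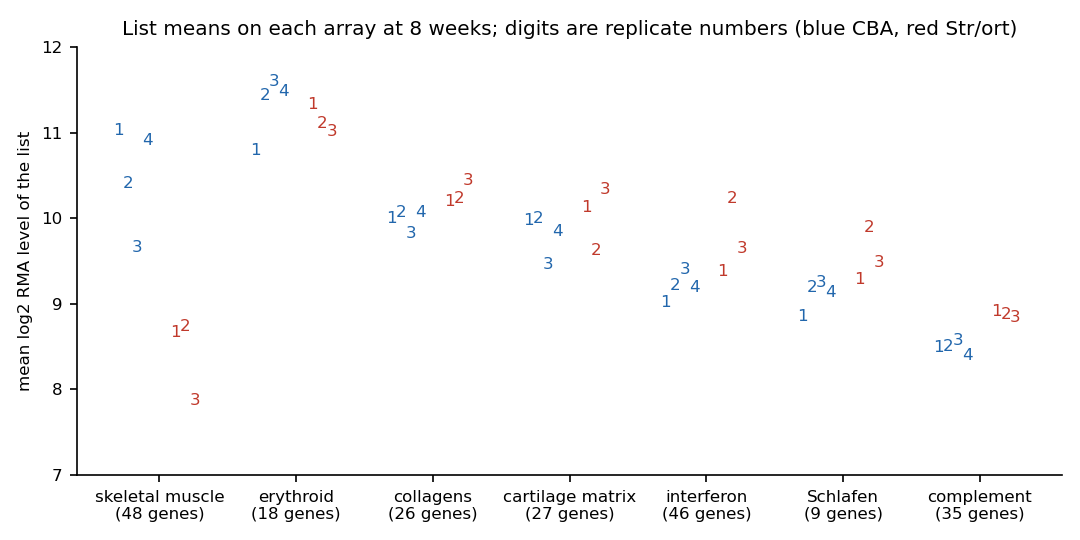
Mean log2 level of 7 gene lists on each array at 8 weeks, with digits for the replicate number in blue for CBA and red for Str/ort. The muscle markers of the strains do not overlap (9.66 to 11.02 against 7.87 to 8.74), the interferon mean is highest on Str/ort replicate 2 (10.23), the erythroid mean lowest on CBA replicate 1 (10.79), and the complement means form separate, tight groups.

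Promoters of these genes were searched for the pattern GAAANNGAAA, the core of the element bound by the interferon-activated factor ISGF3 and by IRF proteins, on either strand (TTTCNNTTTC on the other), in the 250 bases before the gene start. Sequences are from RefSeq on GRCm38.p6, written 5′ to 3′ on the strand of the gene, with the match in capitals. They are shown because these genes are the called members with a match in the lists of interferon genes, interferon-inducible GTPases, Schlafen, Trim and p200 genes, with Gbp2b, which none of these lists holds, added.
Ifit1, chr19:34640765-34640814, plus strand: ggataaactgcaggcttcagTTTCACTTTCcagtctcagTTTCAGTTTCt
Gbp7, chr3:142530263-142530312, plus strand: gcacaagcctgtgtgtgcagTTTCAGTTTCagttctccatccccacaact
Gbp2b, chr3:142594690-142594739, plus strand: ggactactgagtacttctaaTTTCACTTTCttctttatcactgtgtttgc
Slfn8, chr11:83020829-83020878, minus strand: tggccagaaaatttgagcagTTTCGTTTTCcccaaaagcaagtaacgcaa
Trim30d, chr7:104507861-104507910, minus strand: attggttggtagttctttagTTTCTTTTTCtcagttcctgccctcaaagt
Ifi203, chr1:173942498-173942547, minus strand: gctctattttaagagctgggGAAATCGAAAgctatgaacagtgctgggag
Ifi214, chr1:173536007-173536056, minus strand: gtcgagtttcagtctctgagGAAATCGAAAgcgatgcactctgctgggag

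Ifit1 carries 2 matches within 50 bases. Ifi203 and Ifi214, both lower in Str/ort, share the same match in the same orientation, and the other genes shown were higher in Str/ort. The counts that follow took the whole promoter entry of a gene, without the limit to the 250 bases before its start. Of 15562 tested genes with a promoter entry, 605 (3.89%) held the pattern. It was in 16 of 194 genes called higher (8.25%), in 3 of 81 called lower (3.7%) and in 11 of 33 genes of the interferon list (33.3%). Only 4 of the 8 called interferon genes had a promoter entry, and 1 of these 4 held it. A match describes these letters of the reference genome, and the Str/ort and CBA sequences were not examined.

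Genes of the cartilage matrix itself did not pass the test. Of 27 cartilage matrix genes none was called, with 4 at an unadjusted p under 0.05 (limma) and a median difference of 0.16, or 0.21 without CBA replicate 1. Col2a1, the chain of type II collagen, was 10.39, 10.51, 9.68 and 10.30 in CBA and 10.28, 9.76 and 10.65 in Str/ort (0.01 ± 0.28). Acan, the core protein of aggrecan, was 10.18, 9.94, 8.91 and 10.16 in CBA and 10.65, 9.57 and 11.27 in Str/ort (0.70 ± 0.50, adjusted p = 0.46). The strains overlap for both genes. Sox9, the transcription factor that drives both, differed by 0.11 ± 0.27, Comp by 0.18 ± 0.36, Prg4 by 0.17 ± 0.11, Col10a1, the collagen of hypertrophic chondrocytes, by 0.81 ± 0.40 and Cilp by 1.22 ± 0.41 (adjusted p = 0.139). Of 26 genes of the fibrillar and other collagens none was called (limma; 10 at an unadjusted p under 0.05), while the median was 0.33 (0.28 without CBA replicate 1) and 10 had every Str/ort array above every CBA array, a pattern found in 10.9% of all genes. The fit on the 7 arrays alone called 3 of the 26 higher, Col8a1, Col12a1 and Postn, and none lower, where it called 115 of all 19937 genes higher.

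Of the genes linked to cartilage breakdown, 1 passed. Among 22 measured joint disease genes, 20 had a difference above 0 and the median was 0.48, against -0.01 over all genes. Only Htra1 was called, where 1.21% of all genes were called higher. The fit on the 7 arrays alone called 3 of the 22 higher, Htra1, Mmp13 and Timp1, where it called 115 of all 19937 genes higher. Htra1, a secreted serine protease that cuts matrix proteins, was 9.08, 9.77, 9.80 and 9.71 in CBA and 10.87, 10.46 and 10.95 in Str/ort. Its strains do not overlap, and the low value of CBA replicate 1 contributes: the difference was 1.17 ± 0.27 (adjusted p = 0.0306) with all arrays and 1.00 (adjusted p = 0.109) without it. The call was also lost without CBA replicate 2 or Str/ort replicate 1 or 3. Mmp13, the collagenase of osteoarthritic cartilage, was 11.46, 11.52, 11.74 and 11.52 in CBA and 12.38, 12.11 and 12.28 in Str/ort, without overlap, but its difference of 0.69 ± 0.26 did not pass at 8 weeks (adjusted p = 0.194); at 18 and 40 weeks it was 1.51 and 0.93, called at both. Timp1, a metalloproteinase inhibitor, showed the same, with 9.32 to 9.95 in CBA, 10.42 to 11.12 in Str/ort and a difference of 1.14 ± 0.33 (adjusted p = 0.0892), and 1.48 and 1.32 later, called at both ages. The aggrecanase genes Adamts5 and Adamts4 differed by 0.63 ± 0.20 and 0.19 ± 0.18, Mmp3 by 0.53 ± 0.38 and the cytokine gene Il1b by 0.92 ± 0.36, none of them called. The remaining joint disease genes Ank, Aspn, Ccn4, Frzb, Gdf5, Panx3, Sfrp1 and Timp3 lay between -0.14 and 1.03 and did not pass either. Over the 32 matrix proteases 14 had no overlap with Str/ort above CBA, a pattern found in 10.9% of all genes, and the median was 0.33. Of these 32, 1 was called higher, where 1.21% of all genes were. The fit on the 7 arrays alone called 3 of the 32 higher and none lower, where it called 115 of all 19937 genes higher. With the mean of the muscle markers as a covariate the medians of the proteases and of the collagens were 0.15 and 0.18. The muscle markers were lower in Str/ort without overlap, so muscle level and strain cannot be told apart here. Whether muscle content bears on these lists was not tested.

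Of 47 genes of the TGF-beta and BMP pathway, which controls chondrocyte maturation and matrix synthesis, 4 were called higher and none lower, where 1.21% of all genes were called higher. The fit on the 7 arrays alone called 1 of the 47 higher, Acvrl1, where it called 115 of all 19937 genes higher. Acvrl1, the type I receptor ALK1, was 8.93, 9.17, 9.09 and 9.04 in CBA and 9.71, 10.03 and 9.66 in Str/ort (0.74 ± 0.13, adjusted p = 0.00309), called whichever array was left out. Tgfbr1, the type I receptor ALK5, rose by 0.43 ± 0.11, Smad5, which carries BMP signals to the nucleus, by 0.34 ± 0.07, and Bmp3, an antagonist of BMP signalling, by 0.78 ± 0.17. Without CBA replicate 1 Acvrl1 and Smad5 were still called, and Tgfbr1 (0.35, adjusted p = 0.138) and Bmp3 (0.67, adjusted p = 0.0688) were not. Smad5 lost the call without CBA replicate 2 (0.31) or Str/ort replicate 3 (0.29), Bmp3 also without Str/ort replicate 2 (0.79) or 3 (0.59), and Tgfbr1 in 6 of the 7 fits. Of 45 inflammatory mediators, the chemokine genes Cxcl13 and Cxcl16 and the TNF receptor gene Tnfrsf1b rose by 1.05, 0.71 and 0.64, and none of the 3 was called without CBA replicate 1. None of 40 Wnt pathway, 32 oxidative phosphorylation, 16 glycolysis or 29 cell cycle genes was called, with medians of 0.04, -0.15, 0.08 and -0.01. An unadjusted p under 0.05 was reached by 5, 5, 3 and 2 of them (limma), and by 16.8% of all genes. Of other lists, Atf6, a sensor of unfolded protein, rose by 0.30, Cidea, a lipid droplet protein of brown fat, fell by 0.49 and Aplnr, the endothelial apelin receptor, fell by 0.64, and none of these 3 was called without CBA replicate 1.

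The rest of the largest differences lay in genes of varied function. H2-K2, a class I gene beside the called AA388235 and near Rps18 in the RefSeq order, was 5.94, 6.62, 6.96 and 5.96 in CBA and 7.80, 8.29 and 7.78 in Str/ort (1.59 ± 0.21). It was the only one called of 18 class I genes. Tmem267 was 7.69 to 7.83 in CBA and 8.87 to 9.31 in Str/ort, Wfdc17, a whey acidic protein gene of macrophages, rose by 1.28, Pld5, of the phospholipase D family, by 1.49 and Fibin, a secreted protein of limb buds, by 1.55. Camp, the antimicrobial peptide of neutrophils, rose by 0.60, and Serpina3b, a serine protease inhibitor, was 8.51 to 9.22 in CBA and 6.89 to 7.10 in Str/ort. Ifitm6 fell by 1.14, Cerkl, a ceramide kinase-like gene, by 1.07, Abca6, a lipid transporter, by 0.93, Msh5, a meiotic DNA repair gene, by 0.92, Catspere2 by 0.92, the small nucleolar RNA host gene Snhg17 by 0.90 and Mtarc1, a mitochondrial reductase, by 0.86. Hbq1a, a haemoglobin theta chain, fell by 1.04 and Nrg4, a growth factor of the neuregulin family, by 0.92, and both lost the call without Str/ort replicate 3 (-1.01 and -0.77). Wfdc17 lost it without CBA replicate 2 or Str/ort replicate 1 or 2 (1.19 to 1.20), Fibin without Str/ort replicate 3 (1.23), Pld5 in 6 of the 7 fits (1.37 to 1.57) and Camp in 5 (0.47 to 0.65). Of the 25 largest rises among called genes without overlap of the strains 20 were called whichever array was left out, and of the 25 largest such falls 18. Called genes had 35 other transcript clusters in all, of which 32 differed in the same direction and 8 of these were called. Another cluster of the ribosomal protein gene Rps18 rose by 0.74, against -0.43 in the cluster used, the only case among the 35 that passed in the opposite direction.

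Whether the differences at 8 weeks were also present later was measured on other arrays, 4 per strain at 18 and at 40 weeks. Of the 347 genes, 201 (57.9%) were called in the same direction at 18 weeks, which is 11.5% of the 1742 genes called then (8.74% of all genes), and 175 (50.4%) at 40 weeks, which is 24.5% of the 714 called then (3.58%). None was called in the opposite direction at either age. Without CBA 8 weeks replicate 1 these shares were 81.5% and 71.6% of 243 called genes, and without CBA 8 weeks replicate 4 they were 36.7% and 31.6% of 488. The genes called at 18 and 40 weeks, of all 19937, changed as well. They were 2926 and 1419 without CBA 8 weeks replicate 1, and 1701 and 719 without replicate 4. Of the 347, 156 were called in the same direction at both later ages, which makes 90 of 241 rises (37.3%) and 66 of 106 falls (62.3%). Of the 77 differences over 1, 58 were called at both ages. Among the 156 the median size of the difference was 0.83, 0.80 and 0.83 at the 3 ages. These genes were picked for a call at all 3 ages, so the choice itself favours similar sizes.

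Most of the genes with the largest differences behaved in this way. The 25 largest rises and falls were taken among called genes whose arrays do not overlap between the strains, passing over predicted symbols. Vsig4, which rose by 2.20 at 8 weeks with overlap and was called at neither later age, is therefore not among them. Of the 25 largest rises 23 were called at all 3 ages, all but Igha, the constant chain of immunoglobulin A (1.74, 0.63 and 1.42 at 8, 18 and 40 weeks, and called in 1 of the 7 fits with 1 array left out), and Ifit1. Of the 25 largest falls 23 were, all but Klrd1 and Tac2, a tachykinin gene (-1.04, -1.58 and -0.71). H2-Ea differed by -5.84, -5.57 and -5.19, Gdpd3 by 4.14, 3.78 and 4.32, Mcpt2 by 3.62, 3.65 and 3.64, and Glo1 by -0.99, -1.18 and -1.09. C1s1 was called at each age too, but differed by 3.83, 3.91 and 1.89.

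**Figure D5:**
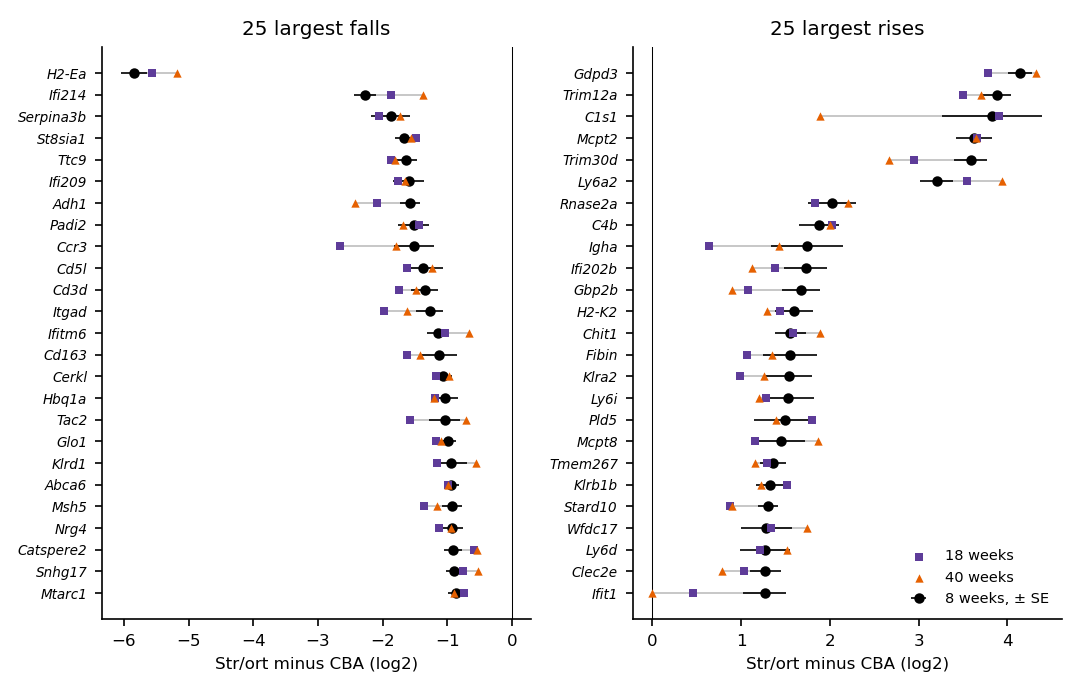
Strain difference (Str/ort minus CBA, log2) of the 25 largest falls and the 25 largest rises at 8 weeks in black with its SE, and of the same genes at 18 weeks (purple squares) and 40 weeks (orange triangles). Each 25 was taken among called genes whose arrays do not overlap between the strains, passing over predicted symbols. Of each 25, 23 were called in the same direction at all 3 ages, while Ifit1 falls from 1.27 to 0.45 and -0.0038 and C1s1 from 3.83 to 1.89 at 40 weeks.

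A further 127 genes (36.6%), 100 of them rises, were called in that direction at neither later age. Their median difference, in the direction at 8 weeks, was 0.51 at 8 weeks and 0.14 at both 18 and 40 weeks. Genes picked for a call at 8 weeks and none later show a smaller later difference through the choice itself. Of the 8 called interferon genes 6 belong here, all but Oas2 and Oasl1. Ifit1 differed by 1.27, 0.45 and -0.0038, Mx1 by 0.66, -0.01 and 0.06 and Parp12 by 0.83, 0.20 and 0.04, and the median of the whole list was 0.52, 0.12 and 0.02. Vsig4 differed by 2.20, 1.31 and 0.24, Bmp3 by 0.78, 0.10 and 0.23 and Smad5 by 0.34, 0.10 and 0.06. The difference between ages itself was tested, and no gene passed it: the lowest adjusted p was 0.205 for 8 against 18 weeks and 0.285 for 8 against 40 weeks (limma), with 4204 genes (21.1%) and 2596 genes (13.0%) at an unadjusted p under 0.05. So for no single gene was the strain difference at 8 weeks shown to differ from that at a later age. With the 2 arrays that stood apart most left out, replicate 1 of CBA at 8 weeks and replicate 3 of CBA at 40 weeks, 281 and 157 genes passed it.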

How the data were processed

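RNA of articular cartilage was labelled with biotin and hybridised to Affymetrix arrays, 1 per sample, per the labels' protocols. The deposited values are log2 signals made by the authors with RMA, per the submitters' processing notes; its software version is not stated in them. Values ran from 3.11 to 14.7 and array medians from 7.83 to 8.00. No scan date or batch is given.

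Of 34760 transcript clusters, 21640 name 1 gene in the platform annotation; 1321 name several and 11799 none, and these stayed out. Where a gene had several clusters (954 genes), the one of highest mean level was used, which left 19937 genes. The 6 groups of 23 arrays entered 1 linear model in limma 3.58.1 (R 4.3.3; residual df 17 and prior df 4.15) and so share the estimate of spread. P-values were adjusted by Benjamini-Hochberg over all genes. Called means an adjusted p under 0.05, and each SE is the moderated one. Lists were described by counts and medians, with no test of a list.

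Genes were named by this rule: the 25 largest rises and falls among called genes whose arrays do not overlap, passing over predicted symbols; every called member of a list, with uncalled members of a family for contrast; every joint disease gene; and called genes in runs of 3 in the RefSeq order (GRCm38.p6, used for names, order and promoters). Cd3e, Cd3g, Chil1, Col8a1, Col12a1, Postn, AA388235, Rps18, Olfr432, Olfr433 and the genes of the last part fall outside it. Members and lists were chosen with earlier results of these data known.

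Alternatives were leaving out each array or both outlying arrays, the 8 week arrays alone, array weights (statmod 1.5.0), trend and robust settings, quantile normalization, leaving out the dimmest 40% of genes, other handling of clusters, a replicate block, and muscle and erythroid means as covariates. On simulated data for the 8 week comparison, changes were planted in 200 of 19937 genes. The fit recovered 46.3%, 91.0% and 98.5% of changes of 0.5, 1 and 2, and 8 of 165 calls were wrong. The simulated noise was independent between genes and had the same spread on every array. It held no outlying array and no shared shift of muscle or blood genes, so these rates may not hold for the real arrays.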

Additional observations from a re-analysis of the deposited data

Results flagged for a closer look

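Within the 4 CBA arrays, 1 array lay far from the other 3 in 8 of the 126 genes examined, by the ratio of its gap to the whole range. A ratio above 0.829 counts as far, and chance gives this in about 1 of 20 independent groups of 4. The genes examined share the same 4 arrays and many were picked by their differences. This rate therefore cannot tell whether a count of 8 differs from chance. CBA replicate 1 was the distant array for Adamts5 (ratio 0.9205, with 9.24 against 10.00 to 10.07), Aplnr (0.8844, 10.14 against 9.67 to 9.73), Adamts18 (0.8721, 7.76 against 7.50 to 7.54), Htra1 (0.8823, 9.08 against 9.71 to 9.80) and Parp12 (0.889, 8.33 against 9.13 to 9.23). For Htra1, Parp12 and Aplnr this array widened the strain difference, and all 3 lost the call without it. CBA replicate 3 was distant for Catspere2 (0.942, 7.83 against 7.21 to 7.24) and Vsig4 (0.9265, 10.06 against 8.20 to 8.33), and CBA replicate 4 for Cxcl13 (0.9166, 6.74 against 7.12 to 7.16).

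Among 50 list means 4 had such an array. CBA replicate 3 was distant and low for chondrocyte regulators (0.8375, 9.16 against 9.32 to 9.35) and the Wnt pathway (0.8956, 8.44 against 8.62 to 8.64), and high for the C-type lectins (0.8566, 8.58 against 8.39 to 8.41). CBA replicate 4 was distant and high for glycolysis (0.8659, 10.88 against 10.59 to 10.63).

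Transcript clusters outside the comparisons also differed between the strains. Of 1321 clusters that name several genes 33 were called (2.5%), and of 11799 that name none 151 were (1.28%), tested on their own in the same way. What these clusters measure was not examined.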

How the results depend on the processing

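The median SE of a difference was 0.126, and 0.098 without the 2 outlying arrays. Planted differences of 0.5 were recovered in 46.3% of simulated cases, in which every array had the same spread. All 96 called genes that were named kept their direction under the 12 alternatives and the 7 fits with 1 array left out, and 51 of these 96 stayed called in each of the 7. The count of 347 called genes was 771 without the 2 outlying arrays, 556 in the fit on the 8 week groups without CBA replicate 1, 244 in that fit with all 7 arrays (115 higher and 129 lower, 144 of the 347 among them), 1421 with array weights, 338 after quantile normalization, 294 without the dimmest 40% of genes, 246 with the muscle mean as covariate (188 of the 347) and 493 with the muscle and erythroid means (240 of the 347). With 1 array left out it ran from 140 to 488. The cause of these changes was not tested.

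The share called the same way at 18 weeks ran from 36.7% to 81.5% with 1 array left out, and at 40 weeks from 31.6% to 72.9%. The shares at 18 and 40 weeks were 65.1% and 61.8% after quantile normalization, 80.5% and 67.5% with the muscle covariate, and 26.4% and 60.9% with the muscle and erythroid covariates. The counts of all 19937 genes called at 18 and 40 weeks changed too, in the same order 1850 and 1026, 2717 and 1139, and 205 and 1952. The tests of the difference between ages called 0 genes in each fit with 1 array left out, but 281 and 157 without the 2 outlying arrays, 1059 and 391 with array weights, and 62 for 8 against 40 weeks with the muscle and erythroid covariates.

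Changes of sign were found among named genes that were never called at 8 weeks. With the muscle covariate Col2a1 was -0.10, Comp -0.21, Sox9 -0.24, Panx3 -0.18, Timp3 -0.072, H2-Aa -0.29 and H2-Ab1 -0.14. With the muscle and erythroid covariates Col2a1 was -0.20, Comp -0.29, Sox9 -0.55, Panx3 -0.42, Timp3 -0.15, H2-Aa -0.054, Acan -0.31, Adamts4 -0.045, Ank -0.064, Col10a1 -0.20, Frzb -0.12 and Mcpt4 -0.18. After quantile normalization Col2a1 was -0.12, Panx3 -0.078 and H2-Aa -0.071, with array weights Gdf5 was 0.03 and H2-Aa -0.089, and without CBA replicate 1, in each of the 3 fits that leave it out, H2-Aa was -0.055. With 1 array left out the differences ran from -0.20 to 0.24 for Col2a1, -0.13 to 0.50 for Comp, -0.056 to 0.30 for Sox9, -0.18 to 0.20 for Panx3, -0.17 to 0.13 for H2-Aa, -0.19 to 0.10 for Cd74, -0.079 to 0.18 for Mcpt4 and -0.19 to 0.027 for Sfrp1.

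The replicate numbers of the strains do not pair the arrays: the deviations of same-numbered arrays correlated at -0.0526, 0.0006 and -0.0348, and none of the Str/ort arrays correlated best with the CBA array of its number. With the replicate number as a block 275 genes were called, 264 of the 347 among them, and Panx3 was -0.013.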

Other observations

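Some differences at 8 weeks lay in genes that no list holds, and were singled out after their values were seen. Adamts18, a secreted metalloproteinase of the ADAMTS family, was 7.76, 7.52, 7.50 and 7.54 in CBA and 8.52, 8.54 and 8.83 in Str/ort. Its strains do not overlap, the difference was 1.05 ± 0.13 (limma, adjusted p = 4.68e-05), and it was called whichever array was left out. At 18 and 40 weeks Adamts18 differed by 0.12 and 0.28 and was not called. Phf11d, a PHD finger gene, was 7.50 to 8.19 in CBA and 8.36, 9.51 and 8.76 in Str/ort, and Rnf213, a ring finger gene, 9.50 to 10.26 against 10.59, 11.46 and 10.86; both were highest on Str/ort replicate 2, as the interferon genes were, and their differences were 1.08 and 0.95 at 8 weeks, 0.45 and 0.19 at 18 weeks and 0.03 and 0.10 at 40 weeks. Rnf213 lost the call without Str/ort replicate 2 (0.71).

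Lbp, which binds bacterial lipopolysaccharide, lies beside Snhg17 in the RefSeq order and went the other way, from 11.10, 11.33, 11.42 and 11.42 to 12.27, 12.12 and 12.43 (0.95 ± 0.18; adjusted p = 0.0514 without Str/ort replicate 3). Lbp was called at both later ages, with 0.73 and 0.64. Col6a5, a chain of type VI collagen outside the collagen list, was 8.06 to 8.35 in CBA and 7.60 to 7.75 in Str/ort, a fall of 0.58 that was called whichever array was left out and at both later ages (-0.65 and -0.49).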
